A study of Mus musculus with 9 samples.

Results

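The claudins, cadherins, desmosomal genes and connexins are the genes whose proteins hold neighbouring cells together, seal the gap between them and connect their cytoplasms. They were chosen by name: every claudin, numbered cadherin, plakophilin, desmocollin, desmoglein, tight junction protein and connexin symbol of the alpha, beta and gamma classes, with desmoplakin, plakoglobin and occludin. The rule found 81 of the 24421 gene symbols in the tables, namely 23 claudins, 4 genes of occludin and the Tjp scaffolds, 23 cadherins, 9 desmosomal cadherins, 6 desmosomal plaque genes and 16 connexins. They were measured by RNA sequencing of whole liver in 4 OGT-deficient mice and 5 wild-type littermates (WT), all on the C57BL/6J background, 5 weeks old and fasted for 6 h. OGT is the enzyme that attaches O-linked N-acetylglucosamine to nuclear and cytoplasmic proteins. Both sexes were used. Which mouse was of which sex or litter, and how and in which cells the gene was deleted, is not stated in the sources used here.

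Tight junctions seal the bile canaliculus, the narrow channel between hepatocytes, away from blood. Claudins form the seal and its ion-selective pores, occludin lies beside them, and the Tjp proteins tether both to actin. Cadherins bind their like on the next cell, desmosomes anchor keratin filaments at the membrane, and connexins form gap junction channels through which hepatocytes pass ions and small signals. Hepatocytes, bile duct cells, endothelium and stellate cells each carry a different set of these genes, so in whole liver fewer cells of a type and less RNA per cell cannot be told apart.

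The libraries held 36323832 to 45102080 gene counts in OGT-deficient liver and 32337861 to 54130901 in WT liver, so that 1 count was worth 0.0191 to 0.0252 CPM in OGT-deficient and 0.0210 to 0.0347 CPM in WT libraries (CPM are counts scaled to library size). Ogt itself had 20.6, 14.3, 17.2 and 15.6 CPM in OGT-deficient liver, against 51.1, 54.2, 57.1, 73.1 and 72.3 CPM in WT liver, which fits the labels. Hepatocyte markers other than Ass1 were abundant in every library. All 11 markers summed to 47339.9 to 60694 CPM in OGT-deficient and 96749 to 116423 CPM in WT liver. Alb led that sum, with means of 33491 CPM in OGT-deficient and 73880 CPM in WT liver. Ass1 had only 0.0561 to 0.256 CPM over all libraries, too few counts to test, and the reason was not examined. The difference between genotypes was broad. Of 14104 genes tested with edgeR's quasi-likelihood test, 61.1% had a Benjamini-Hochberg adjusted p under 0.05, 31.6% higher and 29.4% lower in OGT-deficient liver, and the counts of members below are set against these shares. With upper-quartile scaling the split of all calls was 5435 higher and 3259 lower, in place of 4461 and 4153, and the median over all genes was 0.14 in place of 0.02 on the log2 scale.

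Of the 81 junction genes, 43 had enough counts to be tested. In OGT-deficient liver 23 of them were higher (53.5%), 7 were lower (16.3%) and 13 did not pass the threshold. The calls were mostly upward. At least 2-fold higher were 17 members (39.5%), against a background of 14.8% of all tested genes. Among these, Cldn4, Cldn6, Cldn23, Cdh3, Cdh6, Cdh11, Pkp1 and Gja10 reached the count filter level in fewer than 4 WT libraries. They were thus tested mainly or only through the OGT-deficient libraries, and the 2-fold share without such genes was not compared. At least 2-fold lower was 1 member, Gjb2, where the background was 6.80%. The median log2 fold change of the 43 was 0.43, against 0.02 over all tested genes. Of these members, 4 (Cldn4, Cldn23, Pkp1 and Gja10) reached the count filter in OGT-deficient libraries alone and so had to be higher. Among the 34 members that reached the filter level in at least 4 WT libraries, 15 were higher and 7 lower, with a median of 0.25, while the same restriction over 13057 genes left 28.6% higher, 31.8% lower and a median of -0.03. The groups did not overlap in 19 members with OGT-deficient liver the higher (26.2% of all tested genes) and in 5 with OGT-deficient liver the lower (25.0%), where the background for either direction was 51.3%. In the other 19 members the groups overlapped.

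**Figure D1:**
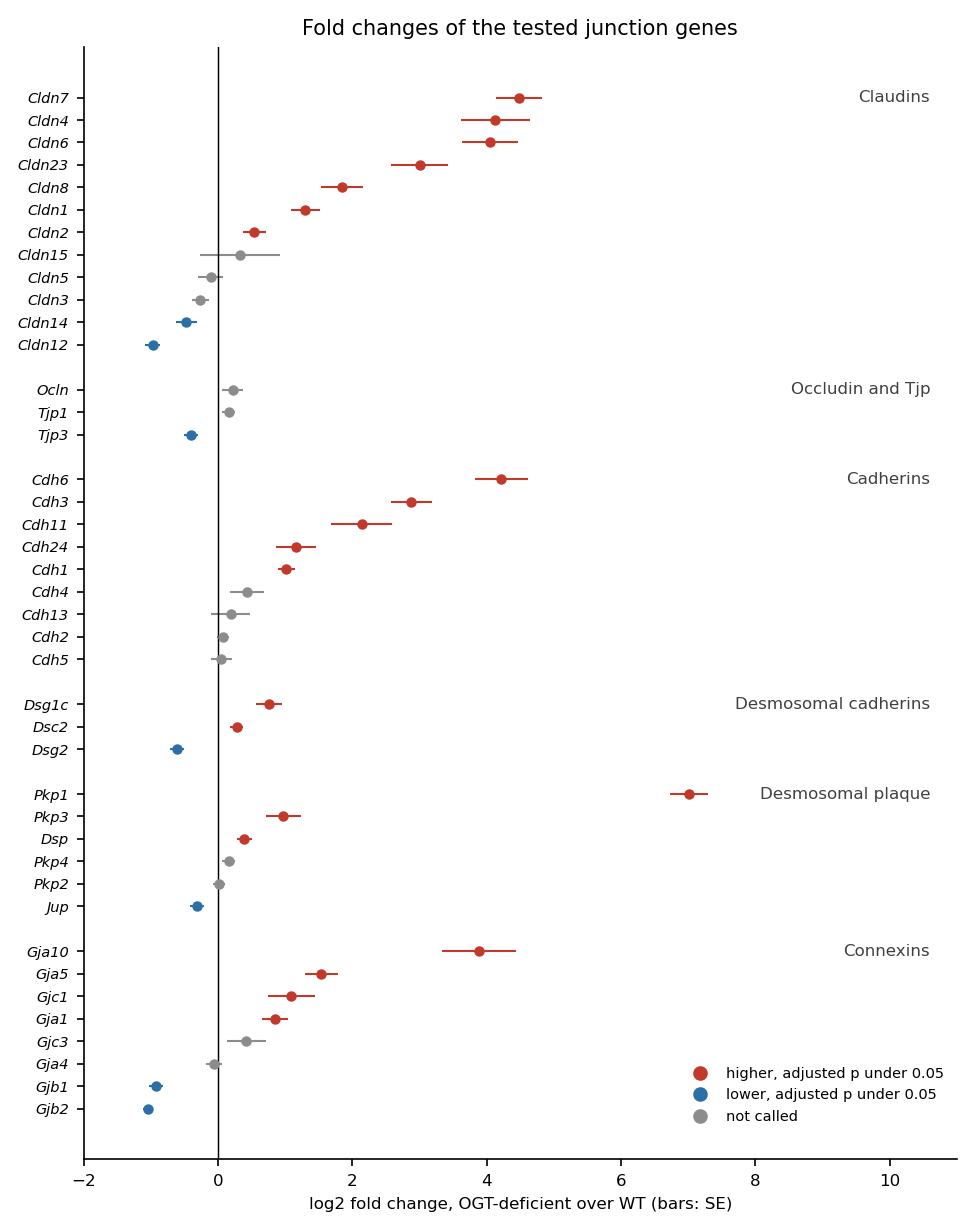
Log2 fold change of OGT-deficient over WT liver (horizontal axis) for 41 of the 43 tested junction genes, ordered by family, with bars for the standard error and colours for the call at an adjusted p of 0.05. The genes called higher reach 7.01 (Pkp1), while the lowest value is -1.04 (Gjb2).

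The other 38 junction genes were too scarce to test. No count in any library was found for 11 of them (Cldn13, Cldn16, Cldn17, Cldn19, Cldn24, Cdh7, Cdh8, Cdh10, Cdh12, Dsg3 and Gja3), and 27 had 1 to 95 counts in all 9 libraries together, with no value above 0.629 CPM. Cdh17, the liver-intestine cadherin, had 0.506, 0.151, 0.610 and 0.441 CPM in OGT-deficient liver, against 0.0641, 0, 0, 0 and 0.0298 CPM in WT liver. Cldn11 had 0.126, 0.202, 0.0381 and 0.147 CPM in OGT-deficient liver and no count in WT liver. Cdh9 ran the other way, with 0, 0, 0.0381 and 0 CPM in OGT-deficient liver, against 0.0854, 0.126, 0.112, 0.0694 and 0.119 CPM in WT liver. These are the 3 untested members whose groups did not overlap, chosen after their values were seen, and the level of 3 counts was 0.0572 to 0.0756 CPM in OGT-deficient and 0.0630 to 0.104 CPM in WT libraries.

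Claudins divided between those that WT liver already carried and those that it barely carried. Of 12 tested, 7 were higher, 2 were lower and 3 were not called. Among the 8 at the filter level in at least 4 WT libraries, 4 were higher and 2 lower, with a median log2 fold change of 0.21, while over all 12, which include Cldn4 and Cldn23, the median was 0.92. Per kilobase of exon, the most abundant claudin in each library was Cldn3, a sealing claudin of liver, followed by Cldn2, which forms a cation and water pore. The next was Cldn1, a sealing claudin of the bile canaliculus, in all 4 OGT-deficient libraries and Cldn12 in all 5 WT libraries.

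Cldn1 had 113, 178, 157 and 129 CPM in OGT-deficient liver, against 84.9, 75.6, 44.0, 41.8 and 46.5 CPM in WT liver. Every OGT-deficient library stood above every WT library, and the means of 144 ± 29.1 CPM in OGT-deficient (SD, n = 4) and 58.6 ± 20.2 CPM in WT liver (SD, n = 5) gave a 2.46-fold difference (95% interval 1.83 to 3.30, adjusted p = 0.000217). Cldn12 was the reverse, with 47.7, 66.7, 56.2 and 59.8 CPM in OGT-deficient liver, against 101, 129, 109, 106 and 119 CPM in WT liver. No libraries overlapped, and the log2 fold change was -0.97 (SE 0.11, adjusted p = 7.86e-06).

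Cldn2 had 134, 229, 154 and 139 CPM in OGT-deficient liver, against 139.8, 125, 115, 84.6 and 99.4 CPM in WT liver. The groups overlapped, with OGT-deficient 2 far above the rest, and the log2 fold change of 0.54 (SE 0.17, adjusted p = 0.0154) became 0.33 (adjusted p = 0.0641) without that library. Cldn3 had 87.5, 111, 122 and 128 CPM in OGT-deficient liver, against 153, 139.8, 139, 117 and 125 CPM in WT liver. Its fold of 0.832 (95% interval 0.71 to 0.975, adjusted p = 0.0656) did not pass, though it did without OGT-deficient 4 (log2 fold change -0.36, adjusted p = 0.0254) or without WT 4 (-0.31, adjusted p = 0.0413). Cldn14, a scarcer claudin, was lower at 7.76 ± 1.64 CPM in OGT-deficient and 10.7 ± 1.61 CPM in WT liver (log2 fold change -0.47, adjusted p = 0.0194). That call was lost without WT 3 (-0.40, adjusted p = 0.0506) and with upper-quartile scaling (-0.36, adjusted p = 0.0608).

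The largest differences among claudins were in genes that WT liver held at traces. Cldn7, a claudin of bile ducts and other simple epithelia, had 14.5, 4.18, 9.70 and 8.52 CPM in OGT-deficient liver, against 0.491, 0.525, 0.252, 0.347 and 0.387 CPM in WT liver. The fold was 22.4 (95% interval 14.0 to 35.6, adjusted p = 4.14e-07), and the lowest OGT-deficient library still stood above all WT libraries. Cldn4, another epithelial claudin, had 2.93, 1.01, 3.07 and 2.77 CPM in OGT-deficient liver, against 0.278, 0.126, 0, 0.0694 and 0.179 CPM in WT liver. Cldn6, a claudin best known from embryonic epithelia, had 4.93, 2.07, 3.66 and 3.18 CPM in OGT-deficient liver, against 0.256, 0.168, 0.337, 0 and 0.238 CPM in WT liver. The log2 fold changes were 4.13 (SE 0.51, adjusted p = 2.01e-05) for Cldn4 and 4.05 (SE 0.42, adjusted p = 4.98e-06) for Cldn6. WT counts of these genes were 0 to 13 per library for Cldn4 and 0 to 12 for Cldn6, so that their folds rest on few WT reads. Cldn8, a claudin of the distal kidney tubule, had 1.71, 0.907, 1.60 and 0.930 CPM in OGT-deficient liver, against 0.385, 0.462, 0.337, 0.208 and 0.358 CPM in WT liver (log2 fold change 1.85, adjusted p = 0.000223). Cldn23 was also higher, at 0.683 ± 0.315 CPM in OGT-deficient and 0.0828 ± 0.0236 CPM in WT liver. Cldn4 and Cldn23 reached the count filter in OGT-deficient libraries alone, so the filter fixed their direction in advance. It also favoured that of Cldn6, which reached it in only 1 WT library, while Cldn7 and Cldn8 did so in 4.

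The remaining claudins did not pass. Cldn5, the claudin of endothelium, had 11.3, 9.73, 11.7 and 7.66 CPM in OGT-deficient liver, against 13.6, 13.6, 10.3, 7.49 and 9.39 CPM in WT liver (log2 fold change -0.11, adjusted p = 0.60, and 0.01 with upper-quartile scaling). Cldn15 had 0.548, 0.781, 0.0762 and 0.220 CPM in OGT-deficient liver, against 0.491, 0.273, 0.393, 0.347 and 0.0596 CPM in WT liver. Its log2 fold change of 0.33 (SE 0.60, adjusted p = 0.647) was -0.19 without OGT-deficient 2, so no direction can be read from it.

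The promoters of Cldn4, Cldn6 and Cldn7 are shown because these genes were higher together, that of Cldn3 because it neighbours Cldn4 without being called, and that of Gjb2 as a member that was lower. In GRCm38, Cldn4 (chromosome 5, 134945119 to 134946934, minus strand) and Cldn3 (134986214 to 134987472, plus strand) lie 39.3 kb apart. Cldn6 (chromosome 17, 23679249 to 23682446, plus strand) ends 137 bases from Cldn9, which had too few counts to test, and Cldn7 lies on chromosome 11 (69964779 to 69967885, plus strand). Capitals mark the E-box letters CAGGTG on either strand, the site that the Snail and Zeb repressors of epithelial genes are known to bind. Each sequence runs 5′ to 3′ in the direction of the gene from 250 bases before to 50 bases after the RefSeq start (GRCm38.p6), at chr5:134946885-134947184 (minus) for Cldn4, chr17:23679115-23679414 (plus) for Cldn6, chr11:69964529-69964828 (plus) and chr11:69965171-69965470 (plus) for the upstream and downstream starts of Cldn7, chr5:134985964-134986263 (plus) for Cldn3 and chr14:57104653-57104952 (minus) for Gjb2.
Cldn4: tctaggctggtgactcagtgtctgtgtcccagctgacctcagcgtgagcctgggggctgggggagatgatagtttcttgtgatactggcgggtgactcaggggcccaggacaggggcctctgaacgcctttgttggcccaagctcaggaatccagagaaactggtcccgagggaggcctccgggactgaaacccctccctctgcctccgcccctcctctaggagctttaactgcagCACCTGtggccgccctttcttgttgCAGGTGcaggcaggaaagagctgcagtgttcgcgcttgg
Cldn6: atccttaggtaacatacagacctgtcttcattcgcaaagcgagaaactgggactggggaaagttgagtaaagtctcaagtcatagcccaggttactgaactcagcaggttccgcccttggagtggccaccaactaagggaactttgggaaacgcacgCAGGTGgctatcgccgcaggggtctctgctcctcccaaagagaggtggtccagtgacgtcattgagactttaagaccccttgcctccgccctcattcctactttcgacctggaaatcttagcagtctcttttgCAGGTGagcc
Cldn7 upstream start: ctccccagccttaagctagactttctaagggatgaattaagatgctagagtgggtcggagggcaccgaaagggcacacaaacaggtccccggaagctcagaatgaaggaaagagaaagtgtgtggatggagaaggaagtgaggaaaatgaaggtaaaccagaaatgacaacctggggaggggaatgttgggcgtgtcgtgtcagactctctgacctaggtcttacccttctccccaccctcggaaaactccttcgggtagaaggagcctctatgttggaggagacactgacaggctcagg
Cldn7 downstream start: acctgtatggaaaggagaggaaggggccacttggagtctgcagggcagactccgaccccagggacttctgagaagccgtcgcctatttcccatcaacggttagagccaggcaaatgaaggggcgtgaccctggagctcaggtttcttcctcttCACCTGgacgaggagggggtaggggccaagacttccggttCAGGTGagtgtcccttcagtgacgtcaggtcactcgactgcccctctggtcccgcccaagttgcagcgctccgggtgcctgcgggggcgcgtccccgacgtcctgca
Cldn3: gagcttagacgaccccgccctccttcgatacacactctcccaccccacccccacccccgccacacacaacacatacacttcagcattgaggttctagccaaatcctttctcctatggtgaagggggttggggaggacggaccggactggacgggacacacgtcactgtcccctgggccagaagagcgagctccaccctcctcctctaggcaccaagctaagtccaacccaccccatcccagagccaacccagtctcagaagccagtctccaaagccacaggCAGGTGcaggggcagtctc
Gjb2: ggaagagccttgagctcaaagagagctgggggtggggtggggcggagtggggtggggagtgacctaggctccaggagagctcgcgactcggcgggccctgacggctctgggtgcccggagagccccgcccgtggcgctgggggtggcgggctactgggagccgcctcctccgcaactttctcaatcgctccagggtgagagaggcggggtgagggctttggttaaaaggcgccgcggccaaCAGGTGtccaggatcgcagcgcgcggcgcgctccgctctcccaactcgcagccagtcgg
The E-box letters began at -14 and 12 from the start in Cldn4, at -93 and 41 in Cldn6, at -97 and -57 from the downstream start of Cldn7, at 32 in Cldn3 and at -9 in Gjb2. The RefSeq start of Cldn6 lies 116 bases inside the gene as placed above, so both of its matches fall within that gene, and the downstream start of Cldn7 lies 642 bases inside. The closing bases of the Cldn6 window, which hold the match at 41, were found in no annotated transcript of Cldn6. Those of the other windows were found in a transcript of their gene. The start used for Cldn6 is therefore less certain. The letters were not in the window of the upstream start of Cldn7. The letters occurred in 20.2% of the 32851 promoter windows of this length and in 18 of 66 windows of members (27.3%, 49 members with an entry), so genes called higher, not called and lower all held them. Other letters were searched on either strand as well. The GC box letters GGGCGG, in 35.7% of all windows, matched at 2 places each in Cldn4, Cldn6 and Gjb2 and at 1 place each in Cldn3 and at the downstream start of Cldn7. The AP-1 letters TGANTCA, in 7.81% of all windows, matched at 2 places in Cldn4. The TEAD letters GGAATG, in 14.7% of all windows, matched at 1 place in Cldn6 and at 1 place at the upstream start of Cldn7, and the HNF4 letters CAAAGT, in 14.4%, at 1 place in Cldn6. The TATA box TATAAA (13.6% of all windows), the Grainyhead letters AACCGGTT (0.146%), AACCNGTT (2.09%) and AACNNGTT (4.2%), where each form includes the stricter form before it, and the C/EBP letters TTGCNNAA (10.8%) had no match in these windows. A match of letters is a description of the sequence and not a site shown to be bound.

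Among occludin and the scaffolds that tie claudins to actin, Tjp3 was lower and Tjp1 and occludin were not called. Tjp3 had 22.3, 26.9, 28.2 and 23.8 CPM in OGT-deficient liver, against 37.4, 37.4, 30.9, 30.4 and 30.7 CPM in WT liver. The groups did not overlap, and the log2 fold change was -0.40 (SE 0.10, adjusted p = 0.00415). Tjp1 had 69.8, 64.2, 56.2 and 58.0 CPM in OGT-deficient liver, against 60.4, 50.1, 49.1, 61.7 and 57.1 CPM in WT liver. The groups overlapped and the log2 fold change of 0.16 (adjusted p = 0.174) did not pass, though it did with upper-quartile scaling (0.28, adjusted p = 0.0213). Occludin (Ocln) had 33.0, 23.1, 23.2 and 25.6 CPM in OGT-deficient liver, against 23.2, 25.7, 14.1, 25.0 and 24.6 CPM in WT liver, a fold of 1.16 (95% interval 0.931 to 1.46, adjusted p = 0.264).

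**Figure D2:**
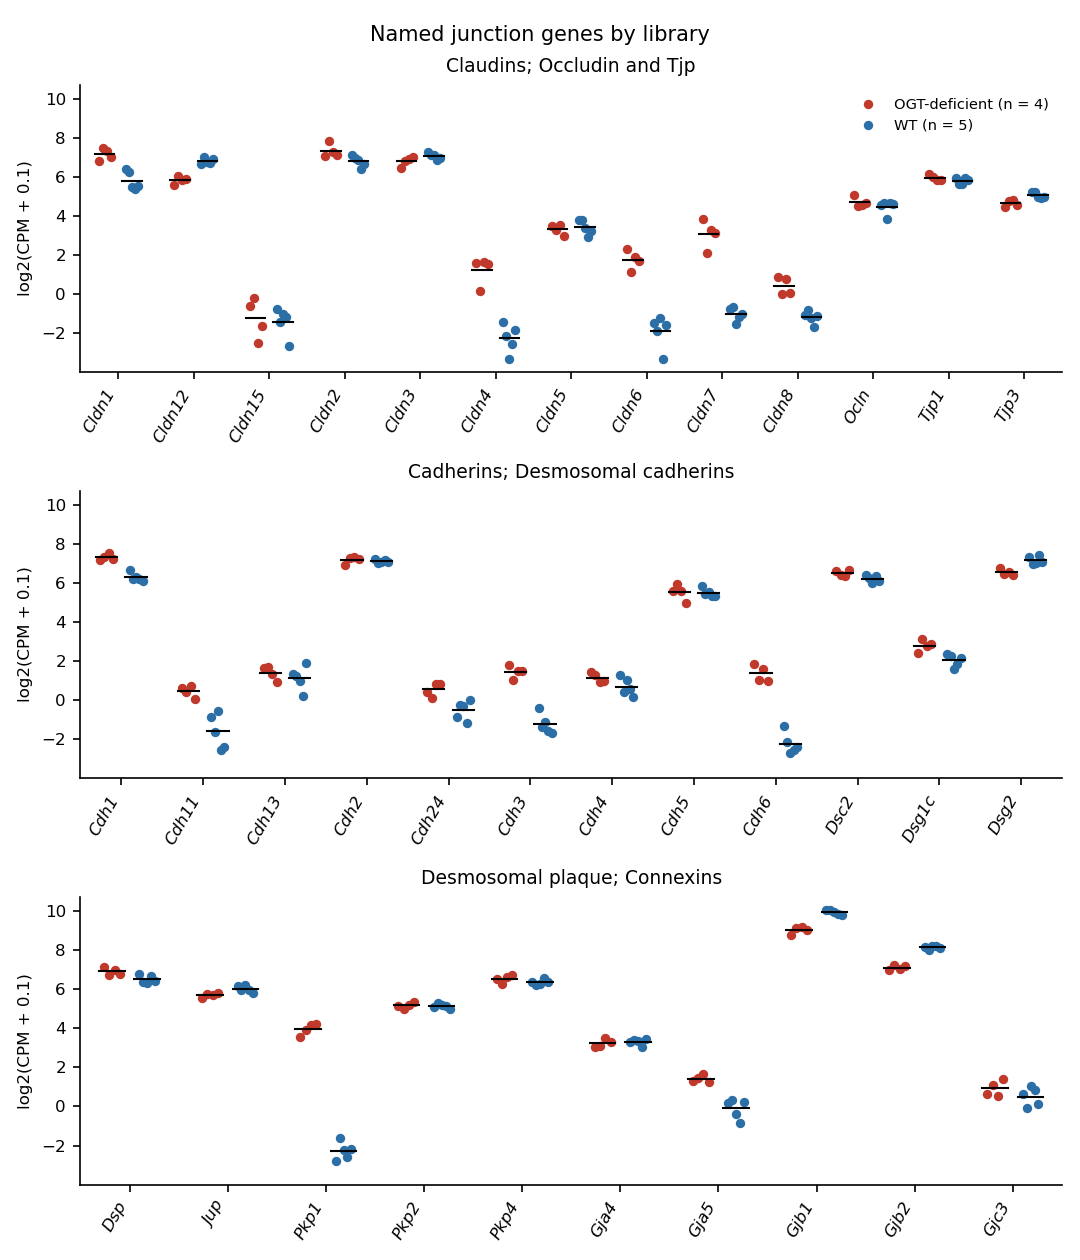
Level of the named junction genes as log2(CPM + 0.1) in each library (points), by family, with OGT-deficient to the left of WT and a black line at each group mean. The 4 OGT-deficient points of Cldn7, Cdh6 and Pkp1 stand apart from the 5 WT points, while those of Cdh2, Cdh5 and Pkp2 overlap with them.

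Among the cadherins, the E-cadherin gene and 4 scarce members were higher in OGT-deficient liver, while the genes of N- and VE-cadherin had overlapping levels. Of 9 tested, 5 were higher and 4 were not called. Among the 6 at the filter level in at least 4 WT libraries, 2 were higher (33.3%, against 28.6% of all genes under that restriction), with a median log2 fold change of 0.31, while the median over all 9 was 1.02. Cdh1, the gene of E-cadherin, which liver carries in periportal hepatocytes and bile ducts, had 145, 161, 188 and 149 CPM in OGT-deficient liver, against 103, 73.7, 78.0, 74.0 and 67.9 CPM in WT liver. Every OGT-deficient library was above every WT library, and the fold was 2.02 (95% interval 1.71 to 2.39, adjusted p = 1.58e-05). Cdh2, the gene of N-cadherin, the other main cadherin of hepatocytes, had 119.8, 155, 159 and 147 CPM in OGT-deficient liver, against 151, 129, 135, 145 and 133 CPM in WT liver. The interval of its fold ran from 0.922 to 1.19 around 1.05 (adjusted p = 0.552). Per kilobase, Cdh1 was thus at 1.78 to 2.13 times the level of Cdh2 in OGT-deficient liver and at 0.898 to 1.20 times in WT liver, without overlap.

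Cdh3, the gene of P-cadherin, lies 46.1 kb from Cdh1 on chromosome 8 and was higher as well. It had 3.44, 1.94, 2.72 and 2.72 CPM in OGT-deficient liver, against 0.662, 0.294, 0.365, 0.243 and 0.209 CPM in WT liver (log2 fold change 2.88, SE 0.31, adjusted p = 6.96e-06). Cdh6, a cadherin first known from kidney, had 3.56, 1.99, 2.95 and 1.88 CPM in OGT-deficient liver, against 0.299, 0.126, 0.0561, 0.0694 and 0.0894 CPM in WT liver. WT 1 stood above the other WT libraries, and the log2 fold change of 4.22 (SE 0.40, adjusted p = 2.03e-06) was 4.83 without it. Cdh11, a cadherin of fibroblasts and other mesenchymal cells, had 1.45, 1.26, 1.56 and 0.955 CPM in OGT-deficient liver, against 0.449, 0.231, 0.589, 0.0694 and 0.0894 CPM in WT liver (log2 fold change 2.14, adjusted p = 0.00120). Markers of stellate cells and fibroblasts were higher in the same libraries: 11 of 12 were called, and their summed level was 905 to 1199 CPM in OGT-deficient and 225 to 453 CPM in WT liver. Their part in the Cdh11 difference was not tested. Cdh24 had 1.26, 0.983, 1.71 and 1.69 CPM in OGT-deficient liver, against 0.449, 0.735, 0.729, 0.347 and 0.894 CPM in WT liver (log2 fold change 1.16, adjusted p = 0.00491).

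The other cadherins were not called. Cdh5, the gene of VE-cadherin, which joins endothelial cells, had 47.8, 61.0, 47.5 and 31.9 CPM in OGT-deficient liver, against 57.8, 42.5, 46.4, 39.6 and 40.7 CPM in WT liver. Its fold of 1.04 (95% interval 0.830 to 1.29, adjusted p = 0.802) turned to a log2 fold change of -0.11 without OGT-deficient 2. Of 12 endothelial markers, 1 was higher and 2 were lower, and their summed level overlapped at 332 to 548 CPM in OGT-deficient and 471 to 637 CPM in WT liver. Cdh13, the gene of the membrane-anchored T-cadherin, had 2.99, 3.15, 2.42 and 1.81 CPM in OGT-deficient liver, against 2.44, 2.25, 1.85, 1.08 and 3.70 CPM in WT liver (log2 fold change 0.19, adjusted p = 0.583). Cdh4, the gene of R-cadherin, had 2.59, 2.34, 1.79 and 1.91 CPM in OGT-deficient liver, against 2.35, 1.24, 1.96, 1.39 and 1.01 CPM in WT liver (log2 fold change 0.43, adjusted p = 0.159, and 0.62 with adjusted p = 0.0434 without WT 1).

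In desmosomes, the cadherin pair most abundant in these livers differed in opposite directions. Of 3 desmosomal cadherins tested, 2 were higher and 1 was lower. Dsg2, the widely expressed desmoglein, had 109, 87.0, 95.8 and 85.4 CPM in OGT-deficient liver, against 162, 124, 129, 170.0 and 137 CPM in WT liver. The groups did not overlap, with means of 94.4 ± 10.9 CPM in OGT-deficient and 145 ± 20.4 CPM in WT liver and a log2 difference of -0.61 (SE 0.11, adjusted p = 0.000494). Dsc2, the matching desmocollin, had 97.4, 84.0, 83.0 and 99.7 CPM in OGT-deficient liver, against 84.2, 76.7, 64.4, 80.6 and 68.5 CPM in WT liver. The groups overlapped at this smaller difference, with a log2 difference of 0.28 (SE 0.10, adjusted p = 0.0241). The call was lost on leaving out OGT-deficient 1 (0.23, adjusted p = 0.0869), OGT-deficient 4 (0.21, adjusted p = 0.112), WT 3 (0.23, adjusted p = 0.0566) or WT 5 (0.25, adjusted p = 0.0588). Per kilobase, Dsc2 was at 1.36 to 1.83 times the level of Dsg2 in OGT-deficient liver and at 0.743 to 0.969 times in WT liver, so that Dsc2 led in each OGT-deficient library and Dsg2 in each WT library. Dsg1c, a relative of the skin desmogleins, had 5.16, 8.75, 6.74 and 7.32 CPM in OGT-deficient liver, against 5.11, 4.64, 2.97, 3.47 and 4.35 CPM in WT liver (log2 fold change 0.76, adjusted p = 0.00350). That value is uncertain, since 29.0% of its 50-base stretches also occur in other listed genes. Alignments listed as not unique were fewer in every OGT-deficient than in any WT library, which also bears on Gja5.

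On the inner side of the desmosome, Pkp1 had the largest fold change of all 43 tested junction genes. Pkp1 encodes plakophilin 1, a plaque protein best known from stratified epithelia such as skin, and lies on chromosome 1 (135871395 to 135919207, minus strand, GRCm38). It had 11.5, 14.9, 17.9 and 18.6 CPM in OGT-deficient liver, against 0.0427, 0.231, 0.112, 0.0694 and 0.119 CPM in WT liver, from 544 to 940 counts per OGT-deficient library and 2 to 11 counts per WT library. The fold was 129 (95% interval 87.7 to 189, adjusted p = 4.44e-09). With WT 2, the highest WT library, left out the log2 fold change was 7.51 in place of 7.01. Markers of squamous epithelium were mixed. Krt1, Krt13, Krt14, Ivl and Krtdap had no count in any library, Krt5 did not pass 0.0843 CPM and Trp63 did not pass 0.112 CPM. Sfn was higher (log2 fold change 1.02, adjusted p = 0.00261), at 1.37 to 1.94 CPM in OGT-deficient and 0.520 to 1.05 CPM in WT liver. Sprr1a, with too few counts to test, had 0.227 to 1.11 CPM in OGT-deficient and 0 to 0.0596 CPM in WT liver, and Lor was lower (log2 fold change -0.79, adjusted p = 0.0366). The summed level of the 11 markers, led by Krt10, was 6.20 to 6.99 CPM in OGT-deficient and 4.19 to 5.72 CPM in WT liver, without overlap. Krt10 itself was not called, and the part of squamous cells in the Pkp1 difference was not tested. Among OGT-deficient libraries, Pkp1 was lowest in OGT-deficient 1.

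Of 6 plaque genes tested, 3 were higher, 1 was lower and 2 were not called, and those other than Pkp1 differed far less. Among the 5 at the filter level in at least 4 WT libraries, which leaves out Pkp1, 2 were higher and 1 lower. Their median log2 fold change was 0.16, and under that restriction 28.6% of all genes were higher and 31.8% lower. Desmoplakin (Dsp), which links the plaque to keratin, had 139, 106, 128 and 111 CPM in OGT-deficient liver, against 108, 83.4, 80.6, 102 and 86.0 CPM in WT liver (log2 fold change 0.39, SE 0.11, adjusted p = 0.00883). Plakoglobin (Jup), which serves desmosomes and adherens junctions, had 47.2, 53.8, 52.4 and 56.6 CPM in OGT-deficient liver, against 72.3, 61.7, 73.0, 62.3 and 55.6 CPM in WT liver. Its log2 fold change of -0.31 (adjusted p = 0.0135) lost its call with upper-quartile scaling (-0.19, adjusted p = 0.0948), and both genes overlapped between groups. Pkp3, another plakophilin, was also higher with overlap, at 2.1 ± 0.672 CPM in OGT-deficient and 1.07 ± 0.205 CPM in WT liver. Pkp4, a relative found at adherens junctions, had 92.9, 76.4, 97.1 and 105 CPM in OGT-deficient liver, against 83.7, 75.3, 77.5, 96.2 and 83.7 CPM in WT liver, and was not called (log2 fold change 0.16, adjusted p = 0.202, and 0.28 with adjusted p = 0.0293 under upper-quartile scaling). Pkp2, the plakophilin of heart and simple epithelia, had 34.9, 31.2, 36.6 and 41.1 CPM in OGT-deficient liver, against 34.1, 39.4, 36.9, 35.3 and 31.7 CPM in WT liver. Its fold lay between 0.892 and 1.15 (adjusted p = 0.875), with a log2 fold change of 0.02, -0.02 without WT 5 and -0.07 without OGT-deficient 4.

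Of 9 connexins tested, 5 were higher, 2 were lower and 2 were not called, with a median log2 fold change of 0.85. Among the 8 at the filter level in at least 4 WT libraries, which leaves out Gja10, 4 were higher and 2 lower, with a median of 0.63. The genes that were lower are the connexins of hepatocytes, which are also the most abundant. Gjb1, whose product is the main connexin of hepatocytes, had 431, 563, 571 and 514 CPM in OGT-deficient liver, against 1062, 1061, 982, 930.2 and 896 CPM in WT liver. Gjb2, its partner in hepatocyte channels, had 127, 148, 131 and 144 CPM in OGT-deficient liver, against 289, 255, 292, 299 and 279 CPM in WT liver. Neither gene overlapped between groups. The fold was 0.527 for Gjb1 (95% interval 0.457 to 0.608, adjusted p = 9.82e-06) and 0.486 for Gjb2 (95% interval 0.434 to 0.544, adjusted p = 5.6e-07).

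The genes together summed to 558, 712, 702 and 658 CPM in OGT-deficient liver, against 1350.3, 1316, 1275, 1229 and 1175 CPM in WT liver. Their balance overlapped between groups: per kilobase, Gjb1 was at 4.77 to 6.17 times the level of Gjb2 in OGT-deficient liver and at 4.38 to 5.87 times in WT liver. It made up 80.3 to 83.9% of the summed connexin level in OGT-deficient and 80.7 to 84.5% in WT liver. Hepatocyte markers were lower in the same libraries, with 8 of 10 tested markers called. Pericentral hepatocyte markers were lower too, 8 of 10 tested, with a summed level of 2851 to 3370 CPM in OGT-deficient and 10047 to 12188 CPM in WT liver, and 1 was higher. Of 8 periportal markers 4 were lower and 2 higher, with overlapping sums of 4167 to 6865 CPM in OGT-deficient and 5878 to 9299 CPM in WT liver. The part of these cells in the connexin differences, and of periportal cells in that of Cdh1, was not tested.

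The connexins of other cells were scarcer by far. Gja1, the connexin of stellate and many other cells, had 16.3, 10.4, 9.89 and 9.28 CPM in OGT-deficient liver, against 5.43, 7.54, 6.4, 4.58 and 7.81 CPM in WT liver (log2 fold change 0.85, SE 0.19, adjusted p = 0.00209). Per kilobase it stood at 0.00288 to 0.00631 times the level of Gjb1 in OGT-deficient liver and at 0.000819 to 0.00145 times in WT liver. Gja5, an endothelial connexin, had 2.40, 2.62, 3.03 and 2.30 CPM in OGT-deficient liver, against 1.03, 1.16, 0.673, 0.451 and 1.07 CPM in WT liver. Its log2 fold change was 1.54 (SE 0.25, adjusted p = 0.000194), and it is uncertain because 21.0% of its 50-base stretches occur in other listed genes. Gja4, the other main endothelial connexin, was not called, with 8.05, 8.52, 11.3 and 9.67 CPM in OGT-deficient liver, against 9.72, 10.4, 9.90, 8.18 and 10.8 CPM in WT liver (log2 fold change -0.06, adjusted p = 0.667, and 0.06 with upper-quartile scaling).

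Connexins of the gamma class are known from glia and muscle. Gjc3 had 1.43, 2.04, 1.37 and 2.55 CPM in OGT-deficient liver, against 1.47, 0.840, 1.96, 1.66 and 0.984 CPM in WT liver, and was not called (log2 fold change 0.42, adjusted p = 0.226). Of Schwann cell and neuron markers, 2 of 3 tested were higher and the summed level was 5.57 to 8.85 CPM in OGT-deficient and 2.27 to 3.09 CPM in WT liver, and their part was not tested. Gjc1 was higher at 0.990 ± 0.354 CPM in OGT-deficient and 0.458 ± 0.181 CPM in WT liver (log2 fold change 1.09, adjusted p = 0.0174), a call lost without OGT-deficient 1 (0.80, adjusted p = 0.0799). Gja10 was higher at 0.426 ± 0.0701 CPM in OGT-deficient and 0.0265 ± 0.0296 CPM in WT liver, from 82 counts in all.

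**Figure D3:**
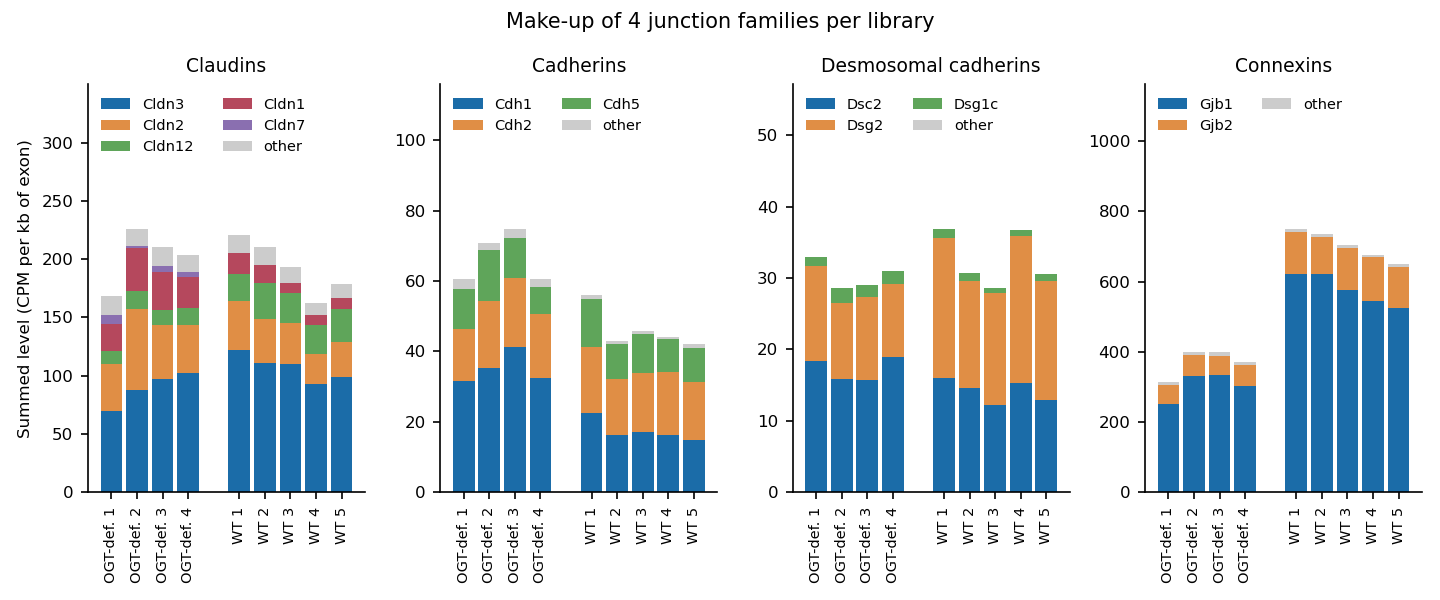
Summed level of 4 junction families in each library, in CPM per kilobase of exon, with coloured segments for the leading genes and grey for the rest, and OGT-deficient libraries to the left of WT. Connexins sum to 314 to 400 in OGT-deficient and 649 to 749 in WT liver, while claudins sum to 169 to 226 in OGT-deficient and 162 to 221 in WT liver.

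Per kilobase of exon, the families differed in whether their sum or their make-up changed. Claudins summed to 169 to 226 CPM per kilobase in OGT-deficient and 162 to 221 in WT liver, with overlap, but their shares moved. Cldn3 made up 38.9 to 50.2% of the claudin sum in OGT-deficient and 52.7 to 57.3% in WT liver, and Cldn12 made up 6.30 to 6.99% in OGT-deficient and 10.8 to 15.7% in WT liver. Cldn1 made up 13.1 to 16.3% of the sum in OGT-deficient and 4.69 to 7.93% in WT liver, and Cldn2 made up 20.6 to 30.5% in OGT-deficient and 15.7 to 19.0% in WT liver. Cldn7, for all its fold change, reached 0.951 to 4.40% of the sum in OGT-deficient and 0.0669 to 0.128% in WT liver. The cadherin sum was above that of WT in every OGT-deficient library, at 60.4 to 74.7 CPM per kilobase in OGT-deficient and 42.0 to 55.9 in WT liver, with Cdh1 at 49.6 to 55.1% of it in OGT-deficient and 35.4 to 40.2% in WT liver. Desmosomal cadherins overlapped in sum, at 28.6 to 33.0 CPM per kilobase in OGT-deficient and 28.6 to 36.8 in WT liver. For connexins the sum itself was lower. Pkp1 made up 4.80 to 7.33% of the summed plaque genes in OGT-deficient and 0.0194 to 0.118% in WT liver.

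Cldn4, Cldn6, Cldn7 and some other junction genes were lowest in the OGT-deficient library in which the bile duct markers called higher were lowest. Of 12 tested cholangiocyte markers 9 were higher and 2 were lower, and the summed level of all 14 was 348 to 453 CPM in OGT-deficient and 266 to 307 CPM in WT liver, with no marker at 0 throughout. That sum leaned on Spp1, which had the largest difference in CPM, with means of 157 CPM in OGT-deficient and 34.5 CPM in WT liver. Spp1 was named after its values were seen, and the sum without it was not compared. Epcam had 20.7, 8.67, 15.1 and 15.1 CPM in OGT-deficient liver, against 2.03, 1.39, 1.35, 1.35 and 1.19 CPM in WT liver. Krt19 had 15.7, 4.26, 11.4 and 9.64 CPM in OGT-deficient liver, against 1.20, 1.41, 0.842, 0.763 and 0.805 CPM in WT liver. Both were chosen after their values were seen. OGT-deficient 2 was the lowest OGT-deficient library for all 9 markers called higher, and OGT-deficient 1 the highest for 8 of them. Slc4a2, called lower, had 33.5, 47.5, 40.6 and 41.8 CPM in OGT-deficient liver, so that OGT-deficient 2 was the highest. Aqp1, on average the most abundant marker of the list, was below WT in every OGT-deficient library but was not called. It had 144, 139, 130 and 83.9 CPM there, against 147 to 153 CPM in WT liver. Slc4a2 and Aqp1 were also chosen after their values were seen.

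Cldn4, Cldn6 and Cldn7 summed to 22.3, 7.26, 16.4 and 14.5 CPM in OGT-deficient liver, against 1.03, 0.819, 0.589, 0.416 and 0.805 CPM in WT liver. Among the 4 OGT-deficient libraries the sum ran in the same order as Krt19, whereas among the WT libraries the orders differed. In OGT-deficient liver Epcam, Sox9, Prom1, Cftr, Ehf and Anxa13 also ran in the order of the sum, but Krt7 and Spp1 did not. Of the 23 junction genes called higher, OGT-deficient 2 was the lowest OGT-deficient library in 10, among them Cldn4, Cldn6, Cldn7, Cldn8, Cldn23, Cdh3, Cdh24, Dsp and Pkp3. OGT-deficient 4 was the lowest in 7, OGT-deficient 1 in 5 and OGT-deficient 3 in 1. In Cldn1, Cldn2 and Dsg1c OGT-deficient 2 was the highest, and Cdh1 and Pkp1 were among those lowest in OGT-deficient 1. The part of bile duct cells in the 10 genes was not tested. How often OGT-deficient 2 was the lowest among all genes called higher was not counted. Over all tested genes, it was the OGT-deficient library nearest to WT on the first principal component, the main axis of difference between libraries (77.2% of the variance). It stood there at 62.65, and OGT-deficient 1, the furthest, at 78.58, so the order may not be particular to these genes. In the markers of intestine and gallbladder, 3 of 4 tested were higher and Lgals4 was lower (log2 fold change -1.26, adjusted p = 0.00247). Cdx2 was at 0, Muc13, Muc5ac and Muc5b did not pass 3 counts in any library, and the summed level, led by Fabp2, was 108 to 139 CPM in OGT-deficient and 51.9 to 81.4 CPM in WT liver.

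**Figure D4:**
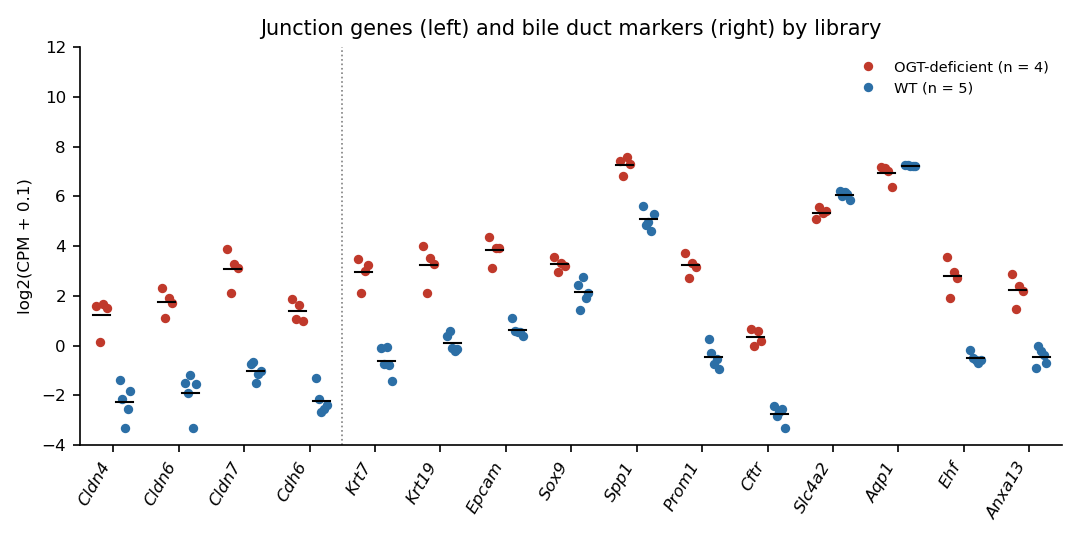
Level as log2(CPM + 0.1) of 4 junction genes (left of the dotted line) and 11 bile duct markers (right) in each library, with OGT-deficient to the left of WT and a black line at each group mean. Cldn4, Cldn6, Cldn7 and Cdh6 are above WT in all 4 OGT-deficient libraries, as are 9 of the markers, whereas Slc4a2 and Aqp1 are below WT.

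The partner proteins of these junctions were examined in lists of genes outside the naming rule. Of 56 tested partners 30 were higher, 8 were lower and 18 were not called, with a median log2 fold change of 0.41. Over all tested genes 31.6% were higher and 29.4% lower. Ctnnd2, Krt20 and Pof1b reached the count filter in OGT-deficient libraries alone, so they had to be higher. In the 51 partners at the filter level in at least 4 WT libraries, 26 were higher and 8 lower, with a median of 0.29. The same restriction over all genes left 28.6% higher and 31.8% lower. These shares are also the background for each list below. The lists were chosen with earlier results of these data known, so their counts are a description only. Tight junction partners had 15 of 28 higher and 3 lower, with a median of 0.38. Marveld3, a relative of occludin, had 17.6, 15.5, 18.9 and 15.4 CPM in OGT-deficient liver, against 1.30, 1.22, 1.01, 0.728 and 1.25 CPM in WT liver (log2 fold change 3.91, SE 0.15, adjusted p = 4.38e-09). It was above WT in every OGT-deficient library. The polarity gene Pard6b was higher (log2 fold change 1.29, adjusted p = 8.89e-07), while its partner Pard3 (-0.39, adjusted p = 0.00333) and the scaffold Mpp5 (-0.32, adjusted p = 0.00682) were lower.

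Adherens junction partners had 4 of 15 higher, 4 lower and a median of 0.05. Under the same restriction to WT levels, 2 of 13 were higher and 4 lower, with a median of -0.05. Ctnnb1, the gene of beta-catenin, which binds the cadherin tail, had 314, 286, 288 and 287 CPM in OGT-deficient liver, against 282, 269, 287, 288 and 292 CPM in WT liver, and was not called (log2 fold change 0.05, adjusted p = 0.541). This gene was chosen after its values were seen. The catenin relatives Ctnnd2 (log2 fold change 3.21, adjusted p = 0.000118) and Arvcf (0.59, adjusted p = 0.000692) were higher, and Ctnnal1 (-1.11, adjusted p = 3.75e-05) and the actin-binding Lima1 (-0.58, adjusted p = 5.43e-05) were lower. Ctnnd2 is scarce, at 1.09 ± 0.326 CPM in OGT-deficient and 0.106 ± 0.0927 CPM in WT liver.

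Keratins and desmosome partners were higher in 10 of 12, with 1 lower and a median of 2.19, and under that restriction in 8 of 9, with 1 lower and a median of 2.14. Krt20 had 1 count and Pof1b 2 counts over all WT libraries. Krt8 and Krt18, the keratin pair of hepatocytes and bile duct cells that desmosomes anchor, rose about equally. Krt8 had 752, 539.9, 759 and 635 CPM in OGT-deficient liver, against 223, 202, 219, 210.4 and 195 CPM in WT liver (log2 fold change 1.68, SE 0.11, adjusted p = 9.5e-08). Krt18 had 446, 317, 411 and 352 CPM in OGT-deficient liver, against 122, 118, 107, 127 and 115 CPM in WT liver (log2 fold change 1.69, SE 0.10, adjusted p = 7.3e-08). OGT-deficient 2 was lowest for both, still above all WT libraries, and Krt7 and Krt19 of this list are also bile duct markers. Perp, a membrane protein of desmosomes, was lower (log2 fold change -0.45, adjusted p = 0.000904). Of the other channel genes related to gap junctions 1 of 7 could be tested: Panx1, a pannexin, had 3.20, 4.51, 4.27 and 4.87 CPM in OGT-deficient liver, against 1.41, 0.987, 1.12, 0.971 and 0.268 CPM in WT liver (log2 fold change 2.12, SE 0.31, adjusted p = 7.9e-05).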

How the data were processed

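The submitters' processing notes name TopHat2 2.1.0, HTSeq 0.9.1 and the build mm10 (GRCm38). The authors deposited unnormalized read counts per gene symbol for each library. Neither annotation release nor library kit nor strand setting is stated in the sources used here. The summary lines entered neither library sizes nor tests. They held 8.95 to 10.7% of uniquely aligned reads outside genes, and 1.78 to 2.17% that overlapped several genes. Alignments listed as not unique numbered 7997176 to 9317390 in OGT-deficient and 16167401 to 35276937 in WT libraries, without overlap. Their part in genes with shared sequence, such as Dsg1c and Gja5, was not tested. Each library stands for 1 mouse, as the design text gives as many mice as libraries.

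Counts were tested in R 4.3.3 with edgeR 4.0.16 (filterByExpr, TMM scaling, quasi-likelihood F test on genotype, Benjamini-Hochberg adjustment over all 14104 tested genes, threshold 0.05), and the procedure was tested on simulated data. CPM use TMM-scaled library sizes, and 95% intervals are 1.96 SE on the log2 scale. That multiple is a normal quantile, so the intervals can be narrower than the F test allows. For Ctnnd1 the interval was 1.01 to 1.26, beside an unadjusted p of 0.0590 in the quasi-likelihood F test. Exon lengths are merged GENCODE mouse exons. Alternatives were DESeq2 size factors, upper-quartile factors, no filter, CPM of at least 1 in 4 libraries, DESeq2 1.42.0, limma voom 3.58.1, the replicate number as a block, and leaving out each library. Intervals and levels of 3 counts cover counting error or spread between these libraries only.

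Members and lists were chosen with earlier results of these data known. Members are given in full where adjusted p was under 0.05 with at least 2-fold change and mean CPM of at least 1, among the top 3 of a family per kilobase, or tested and not called, and others by means or counts. Partners are the 2 with the smallest p in each direction per list. Some genes that this rule takes are not reported here.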

Additional observations from a re-analysis of the deposited data

Results flagged for a closer look

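In 86 groups of libraries, those of the 43 tested junction genes in each genotype, the highest or lowest library was compared with the rest, and 4 groups had a library far from the others. Chance alone sets apart about 1 in 20 groups. Cldn4 was at 1.01 CPM in OGT-deficient 2 and at 2.77 to 3.07 CPM in the other OGT-deficient libraries. Gja1 was at 16.3 CPM in OGT-deficient 1 and at 9.28 to 10.4 CPM in the others. In WT liver, Ocln was at 14.1 CPM in WT 3 and at 23.2 to 25.7 CPM in the others, and Cdh6 was at 0.299 CPM in WT 1 and at 0.0561 to 0.126 CPM in the others.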

How the results depend on the processing

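Of 683 fold changes of the 43 tested junction genes over 16 alternatives, 659 kept their direction and their side of the threshold, and 29 genes did so under each alternative run. The number of junction genes called higher was 19 to 26 and lower 5 to 8, in place of 23 and 7. With each library left out in turn these were 22 to 24 and 6 to 8. The wider range includes filters that test fewer or more junction genes. With CPM of at least 1 in 4 libraries 38 of the 43 were tested and all 38 kept their side of the threshold. With no filter all 43 kept theirs. Directions turned in genes that were not called. With upper-quartile factors Cldn5 was at 0.01 and Gja4 at 0.06 on the log2 scale, and 5 partner genes were lower in place of 8. With the replicate block Cldn15 was at -0.10, Cdh5 at -0.01 and Pkp2 at -0.02. With a library left out the lowest and highest values were -0.19 and 0.70 for Cldn15, -0.11 and 0.17 for Cdh5, and -0.07 and 0.07 for Pkp2. The cause was not tested.

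Same-numbered libraries did not deviate together (correlations -0.103 to 0.104), and of the 4 OGT-deficient libraries OGT-deficient 4 alone correlated best with the WT library of its own number, so the numbers were not taken to pair the mice. With the replicate block 22 junction genes were higher and 7 lower, and Gjc1 lost its call (0.87, adjusted p = 0.0564). Depth limits the genes near 0 in WT liver: the WT counts of Pkp1 were 2 to 11 and those of Cldn4 0 to 13 per library, so their folds are uncertain. Both reached the count filter in OGT-deficient libraries alone, so that the filter fixed their direction in advance.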
